A study of Mus musculus with 12 samples.

Results

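The 10 genes described here mark natural killer (NK) cells and other cytotoxic lymphocytes: Prf1, Ncr1, Gzma, Gzmb, Klrb1c, Klrk1, Klrd1, Eomes, Tbx21 and Ccl5. They were found by symbol in a count table of 56350 genes, where each symbol matched 1 row, and all 10 had enough reads to be tested. Their levels were measured by RNA sequencing in bone marrow of 12 mice, 12 to 14 weeks old, of the strain C57Bl/6J. The mice were of both sexes, with no sex given for any single mouse. Every mouse, vehicle mice included, carried the leukaemia-causing E76K allele of Shp2 in 1 copy together with LysM-Cre, a Cre recombinase that is active in myeloid cells, so the mutation is not directed at lymphocytes. The 4 groups of 3 mice received vehicle, the MEK inhibitor PD-901 (PD0325901, 20 oral doses of 5 mg/kg), the hypomethylating agent 5-azacitidine (5 intraperitoneal doses of 5 mg/kg) or both drugs (the combination), over 4 weeks. No wild-type mouse was analysed here.

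NK cells kill infected or transformed cells without prior sensitisation, and they develop in the bone marrow. They release perforin, which makes pores in the target, and granzymes, proteases that pass into it and start cell death. Whether they do so depends on the balance of activating and inhibitory receptors, while the T-box factors T-bet and Eomes direct their maturation. Cytotoxic T cells share most of these genes, and Ncr1 and Klrb1c are the more restricted to NK cells and their innate lymphoid relatives.

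Several properties of the libraries moved with the groups. Total counts ran from 15356919 to 27148190 per library, and the 10 genes had between 14 and 588 counts in any one of them. Genes with a count numbered 18897 in 5-azacitidine replicate 1 and 19561 in vehicle replicate 1, against 22087 to 24194 in the other libraries. Xist, which female cells transcribe from the X chromosome they silence, stood above 100 CPM (counts scaled to library size) in 3 of 3 vehicle libraries, 2 of 3 with PD-901, 1 of 3 with 5-azacitidine and 0 of 3 with the combination. The summed level of the Y-linked genes Ddx3y, Eif2s3y, Kdm5d and Uty was 0.148 CPM in vehicle replicate 2 and 56.6 to 243 CPM in the 11 others, so 5 of the 6 libraries with Xist above 100 CPM held RNA of both kinds. The labels describe every library as 1 mouse and give no sex for any. Lyz2, the lysozyme gene at which LysM-Cre sits, was lowest in 4 libraries, vehicle replicates 1 and 2 and combination replicates 1 and 2 (44.9 to 172 CPM, against 699.6 to 4182 CPM in the 8 others), and mitochondrial transcripts took 1.75 to 1.81% of counts with the combination against 1.01 to 1.72% in the other groups. Vehicle and combination libraries differ completely in Xist, so for this comparison the drugs and whatever Xist stands for cannot be told apart.

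In level per kilobase of exon, which allows genes to be compared, the chemokine Ccl5 was the highest of the 10 at 18.5 ± 7.18 CPM per kb (mean ± SD, n = 12 libraries). The receptor subunit Klrd1 followed at 7.07 ± 2.77, then Ncr1 at 4.30 ± 2.12 and Gzma at 4.29 ± 2.90 CPM per kb. Klrk1 (2.23 ± 0.773), Klrb1c (2.07 ± 0.976), Prf1 (1.93 ± 1.13), Tbx21 (1.84 ± 0.569), Gzmb (1.61 ± 0.437) and Eomes (1.18 ± 0.468) lay lower. Ccl5 stood apart, and below it neighbours in this order differed by less than the larger of their SDs. Gzma varied most, by 12.4-fold between the lowest and the highest library, and Gzmb least, by 1.98-fold.

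The first comparison sets the combination against vehicle, groups that differ in both drugs and also completely in Xist. Perforin (Prf1) fell 3.09-fold and the activating receptor NKp46 (Ncr1) fell 2.46-fold, and granzyme A (Gzma) stood 2.92-fold lower without passing the test. Of the 10 genes 2 were called lower and 0 higher by edgeR's quasi-likelihood test at an adjusted p under 0.05, where 7.97% of all 17475 genes tested were called lower and 5.78% higher. The median log2 change of the 10 was -0.76, against 0.01 over all genes. In 4 of the 10, all 3 combination libraries lay below all 3 vehicle libraries, as they did in 15.9% of all genes. They lay wholly above in 0 of the 10, against 16.1% of all genes. An unadjusted p under 0.05 was found for 5 of the 10, as for 27.5% of all genes. In bulk marrow, fewer cells of a type and less RNA per cell cannot be told apart.

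Prf1 (mm10 chromosome 10, 61297833 to 61304680) measured 4.51, 7.49 and 9.45 CPM under vehicle against 2.54, 2.40 and 2.01 CPM under the combination, a log2 change of -1.63 ± 0.46 (SE; edgeR adjusted p = 0.0282). The 2 groups did not overlap, and the combination libraries were close together. Ncr1 (chromosome 7, 4337724 to 4345164) was at 9.02, 8.78 and 10.2 CPM with vehicle and at 2.80, 3.42 and 5.13 CPM with the combination, again without overlap (log2 change -1.30 ± 0.41, edgeR adjusted p = 0.0479). Gzma, a trypsin-like granzyme (chromosome 13, 113093825 to 113100981), went from 4.07, 6.11 and 6.92 CPM to 2.19, 2.75 and 0.947 CPM, again with no overlap, and its log2 change had the largest SE of the 3 (log2 change -1.55 ± 0.53, edgeR adjusted p = 0.0653).

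**Figure D1:**
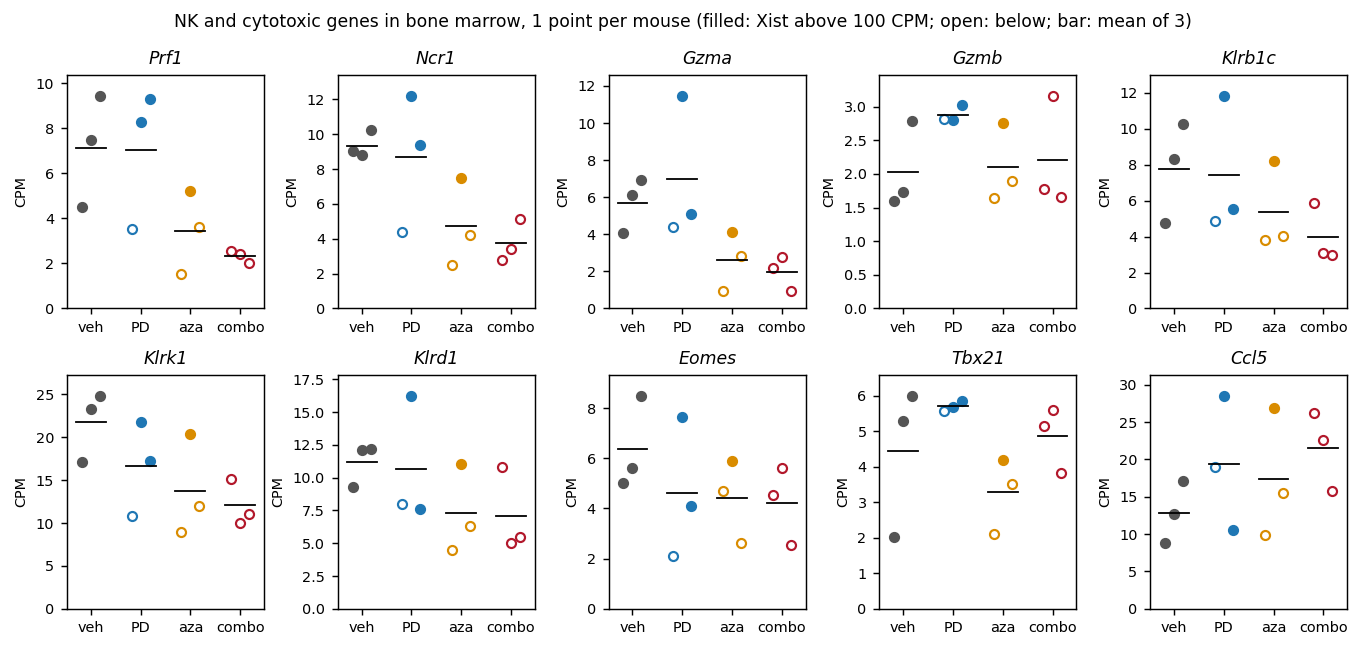
CPM of each gene in the 12 libraries, by group on the x axis (vehicle, PD-901, 5-azacitidine, combination; 3 mice each), with a bar at the group mean and filled points where Xist exceeded 100 CPM. Prf1 and Ncr1 lie lower in all 3 combination libraries than in any vehicle library, and their open points lie below their filled ones.

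With 1 library left out at a time, the log2 changes stayed between -1.86 and -1.38 for Prf1 and between -1.59 and -1.13 for Ncr1, while some calls were lost. Prf1 kept its call in 8 of the 12 fits that left out 1 library and lost it without vehicle replicate 2 or 3 or combination replicate 1 or 3 (edgeR adjusted p = 0.0705, 0.0861, 0.0829 and 0.0992). Ncr1 kept its call in 3 of 12, those without PD-901 replicate 1 or 5-azacitidine replicate 1 or 2, and its edgeR adjusted p reached 0.182 without combination replicate 1. Without the 4 libraries lowest in Lyz2, Prf1 was at -2.23 (edgeR adjusted p = 0.177) and Ncr1 at -0.99 (0.649), vehicle and combination then holding 1 library each, assumed to vary like the others. With a term for Xist above 100 CPM in the model, Prf1 was at -0.46 (edgeR adjusted p = 0.765) and Ncr1 at -0.08 (0.97). The median log2 change of the 10 genes then turned in sign, from -0.76 to 0.09. The number of genes called of all 17475 went from 2403 to 0.

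Split by Xist rather than by drug, the values of 3 of the 10 genes separated fully. All vehicle libraries fall on the higher side of this split and all combination libraries on the lower. Prf1 ran from 4.51 to 9.45 CPM (median 7.90) in the 6 libraries with Xist above 100 CPM and from 1.52 to 3.61 CPM (median 2.47) in the 6 below. Ncr1 ran from 7.46 to 12.2 CPM above and from 2.51 to 5.13 CPM below, and Klrk1 from 17.2 to 24.8 CPM above and from 8.97 to 15.2 CPM below. No library of the 1 kind reached into the range of the other for these 3 genes. A full separation with the libraries above 100 CPM in Xist higher was shown by 0.624% of all genes (0.298% with those libraries lower). Within the groups that held both kinds, the single PD-901 library below 100 CPM in Xist was the lowest in Prf1 and Ncr1. It stood at 3.53 against 8.30 and 9.32 CPM in Prf1 and at 4.41 against 12.2 and 9.39 CPM in Ncr1. The single 5-azacitidine library above 100 CPM in Xist was the highest of its group in both. It stood at 5.20 against 1.52 and 3.61 CPM in Prf1 and at 7.46 against 2.51 and 4.21 CPM in Ncr1.

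Among the 6 libraries low in Xist, Prf1 measured 3.53 CPM under PD-901 and 1.52 and 3.61 CPM under 5-azacitidine. Under the combination it measured 2.01 to 2.54 CPM, inside the range of those single-agent values. No vehicle library is among these 6, so the values cannot speak to the combination against vehicle. The Xist term itself, fitted within treatments, was positive for 10 of the 10 genes with a median log2 difference of 0.92, against 0.00 over all genes. Its largest values were 1.22 ± 0.32 for Ncr1 and 1.16 ± 0.40 for Prf1 (log2 difference ± SE), and 6 of 10 had an unadjusted p under 0.05 where 2.67% of all genes did. With edgeR 0 genes passed after adjustment, Xist itself included, and only 2 of the 4 groups hold libraries of both kinds, so that result says nothing about the 10 genes. Because the split was chosen after the values had been seen, its shares and p-values describe it and do not test it.

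**Figure D2:**
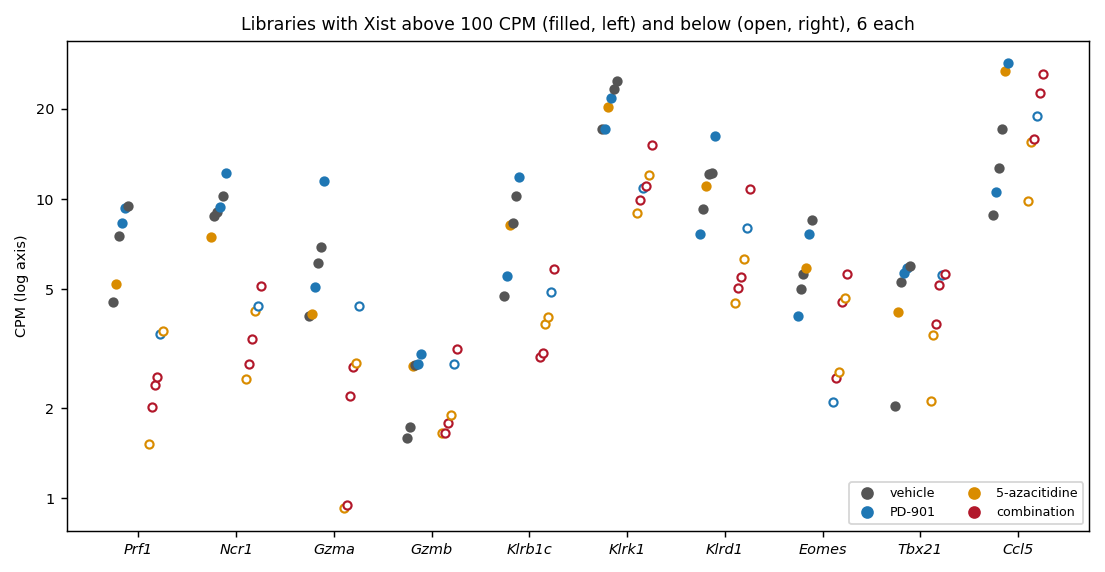
CPM (log axis) of each gene in the 6 libraries with Xist above 100 CPM (filled, left of each pair) and the 6 below (open, right), coloured by treatment group. In Prf1, Ncr1 and Klrk1 the filled and open points do not overlap, while Gzmb, Tbx21 and Ccl5 mix.

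Of the lectin-like receptors encoded in the NK gene complex of chromosome 6, none passed edgeR's test. Klrk1 (129610323 to 129623864) encodes NKG2D, an activating receptor for stress-induced ligands. It stood at 17.2, 23.3 and 24.8 CPM with vehicle and 15.2, 9.94 and 11.1 CPM with the combination, with no overlap (log2 change -0.85 ± 0.31, edgeR adjusted p = 0.0782). Klrb1c (128778485 to 128789215), the NK1.1 antigen, had 4.73, 8.33 and 10.3 CPM against 5.85, 3.06 and 2.96 CPM, and Klrd1 (129591782 to 129598775), the CD94 subunit that pairs with NKG2 chains, 9.29, 12.1 and 12.2 CPM against 10.8, 5.05 and 5.48 CPM. In both, combination replicate 1 reached the vehicle range while the other two lay below it (log2 changes -0.98 ± 0.44 and -0.66 ± 0.39, edgeR adjusted p = 0.158 and 0.296). The gene model Gm44511 overlaps Klrb1c on the same strand and held 0 counts in every library, and reads that could belong to either may not have been counted.

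In the other 4 genes no combination group lay wholly below vehicle. Granzyme B (Gzmb, chromosome 14, 56258838 to 56262260), the caspase-activating granzyme, had 1.59, 1.73 and 2.78 CPM with vehicle and 1.78, 3.16 and 1.66 CPM with the combination (log2 change 0.11 ± 0.42, edgeR adjusted p = 0.918). T-bet (Tbx21, chromosome 11, 97098071 to 97115331) had 2.03, 5.28 and 5.99 CPM against 5.14, 5.61 and 3.83 CPM (0.13 ± 0.38, edgeR adjusted p = 0.891). Eomes (chromosome 9, 118478212 to 118486132) had 5.00, 5.62 and 8.48 CPM against 4.53, 5.61 and 2.53 CPM (-0.60 ± 0.46, edgeR adjusted p = 0.45). These groups overlapped, and vehicle replicate 1 was the lowest of all 12 libraries in Gzmb and in Tbx21. The antisense gene Gm33460 overlaps Eomes with 0 to 18 counts, and without strand its reads and those of Eomes cannot be told apart.

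Ccl5 (chromosome 11, 83525778 to 83530518), which recruits lymphocytes and monocytes, had the highest positive change of the 10. It stood at 8.85, 12.7 and 17.2 CPM with vehicle and at 26.2, 22.6 and 15.8 CPM with the combination, where combination replicate 3 lay inside the vehicle range (log2 change 0.74 ± 0.39, edgeR adjusted p = 0.243). Without the 4 libraries lowest in Lyz2 its change was -0.12. Summed over all 10 genes the level was 88.6 ± 21.1 CPM with vehicle and 64.0 ± 12.8 CPM with the combination, and without Ccl5 it was 75.7 ± 17.0 and 42.5 ± 7.70 CPM (mean ± SD, n = 3).

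**Figure D3:**
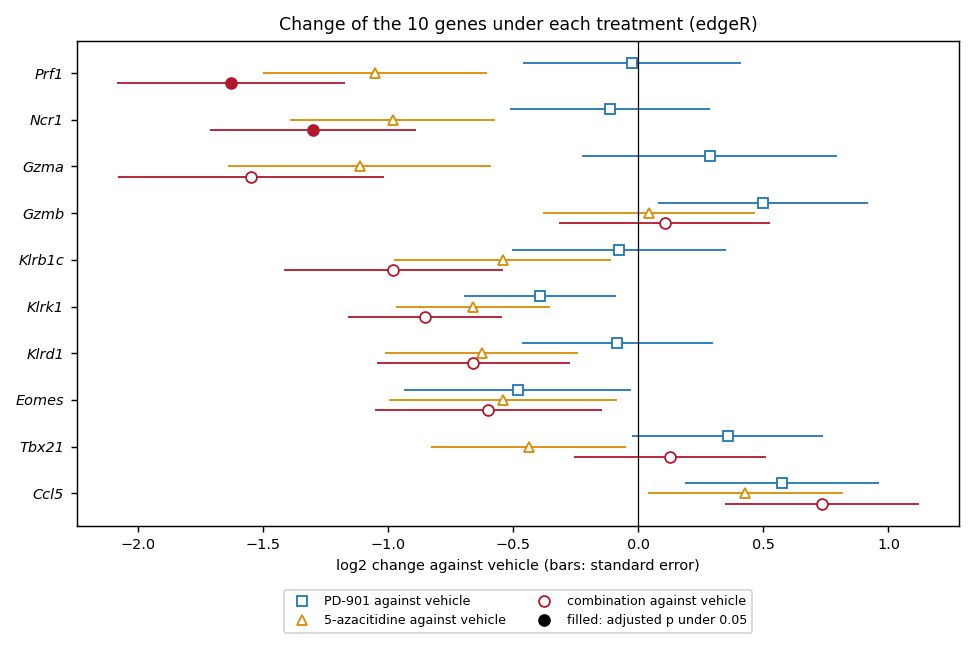
Log2 change against vehicle with its standard error for each gene, for PD-901 (squares), 5-azacitidine (triangles) and the combination (circles), filled where the edgeR adjusted p was under 0.05. The filled points are those of Prf1 (-1.63) and Ncr1 (-1.30) under the combination, and the 3 contrasts share the vehicle libraries.

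Given alone, the hypomethylating agent 5-azacitidine was next set against vehicle, and 0 of the 10 genes passed edgeR's test, where 0.00572% of all genes did. At an unadjusted p under 0.05 there were 3 of the 10 (Prf1, Ncr1 and Klrk1), against 15.3% of all genes. The median log2 change of the 10 was -0.58 and 8 of 10 were negative. Gzma was at 0.923, 4.14 and 2.83 CPM, with a log2 change of -1.11 ± 0.53, Prf1 was at -1.05 ± 0.45 and Ncr1 at -0.98 ± 0.41 (edgeR adjusted p = 0.328, 0.283 and 0.277). Ncr1 was the single gene of the 10 whose 5-azacitidine libraries all lay below the vehicle libraries, as they did in 9.77% of all genes, and 0 of the 10 had all of them above (10.8%). 5-azacitidine replicate 1, the library with the lowest total counts and the fewest genes with a count, was the lowest of the 12 for 5 of the 10 genes.

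The effect of MEK inhibition by PD-901 on its own was asked in the same way. The 10 genes had a median log2 change of -0.05, with 4 positive and 6 negative. By edgeR 0 of 10 passed, 0 of 10 had an unadjusted p under 0.05, and 0% of all genes were called (4.88% at an unadjusted p under 0.05). The largest change was that of Ccl5 at 0.58 ± 0.39, with 18.9, 28.5 and 10.6 CPM (edgeR adjusted p = 0.96). Gzmb, at 2.82, 2.81 and 3.02 CPM, was above the 3 vehicle libraries (0.50 ± 0.42, edgeR adjusted p = 0.963), a separation upward that 6.83% of all genes showed, and 0 of 10 were separated downward (5.93%). PD-901 replicate 2 was the highest of the 12 libraries for 5 of the 10 genes, among them Gzma at 11.5 CPM and Ncr1 at 12.2 CPM.

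The combination was also set against each single agent, groups that differ by the second drug and also in how many libraries were high in Xist. Against PD-901, Prf1 fell 3.04-fold (log2 change -1.60 ± 0.46, edgeR adjusted p = 0.0465), the 1 gene of the 10 called, where 5.12% of all genes were called lower, 1.69% higher and 6.82% in either direction. Of the 10, 3 had an unadjusted p under 0.05 (21.7% of all genes), and the groups did not overlap in 2, both lower (15% of all genes, with 12.7% higher). Prf1 kept this call in 5 of 12 fits without 1 library and lost it without vehicle replicate 2, PD-901 replicate 2 or 3, 5-azacitidine replicate 3 or any of the combination libraries (highest edgeR adjusted p = 0.153, without PD-901 replicate 3), and the value was -0.71 with the Xist term (edgeR adjusted p = 0.494). Gzma was 3.56-fold lower than with PD-901 (edgeR adjusted p = 0.0522), with no overlap of the groups. DESeq2 called 3 of the 10 there, Prf1, Gzma and Ncr1, and limma-voom 0. DESeq2 also called more of all genes there than edgeR did, as counted in the closing section. No such count is given for limma-voom, so its result cannot be set against a share of all genes. Against 5-azacitidine 0 of 10 passed edgeR's test (1.32% of all genes, 1.07% lower and 0.252% higher), and 0 had an unadjusted p under 0.05 (15.8%). The groups overlapped in all 10 (no overlap in 9.1% of all genes upward and 9.54% downward), and Prf1, Ncr1 and Gzma were at -0.58, -0.32 and -0.43.

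5-azacitidine against PD-901 gave 0 edgeR calls among the 10 (0% of all genes), with 2 at an unadjusted p under 0.05 (7.3%). All 10 were negative in sign, with 3 separated downward (7.18% of all genes) and 0 upward (6.55%), a median of -0.50 and Gzma at -1.40 ± 0.53 (edgeR adjusted p = 0.608). For the interaction, the departure of the combination from the sum of the single effects on the log2 scale, 0 of 10 passed by edgeR (0% of all genes), and 0 had an unadjusted p under 0.05 (10.7%). The joint test for any difference among the 4 groups called 0 of 10, where it called 6.96% of all genes, with Prf1 lowest at an edgeR adjusted p = 0.0674. DESeq2 called 3 of 10 in the joint test, where it also called more of all genes than edgeR did, as counted in the closing section.

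Genes that act with the 10 were followed under the combination against vehicle in 7 lists, naming up to 4 genes of a list by the lowest joint p. Of all genes tested 7.97% were called lower in this comparison and 5.78% higher. Of the list of NK receptors and surface markers 5 of 25 genes fell and 0 rose, with a median log2 change of -0.37. S1pr5, the receptor by which NK cells leave the marrow, fell from 6.36 ± 1.91 to 1.27 ± 0.0813 CPM (log2 change -2.33 ± 0.48, edgeR adjusted p = 0.00712). The adhesion receptor Slamf7 fell by 1.79, Cd7 by 1.64 and the integrin Itgam, which neutrophils and monocytes also carry, by 0.98 (edgeR adjusted p = 0.00378, 0.00693 and 0.0109). Of the granule list 2 of 16 fell, both of the release machinery: the syntaxin Stx11 (-0.81, edgeR adjusted p = 0.0177) and the priming factor Unc13d (-0.51, 0.0265). The granule proteoglycan Srgn and the granule membrane gene Nkg7, both also expressed by myeloid cells, were at 0.21 and 0.65 (edgeR adjusted p = 0.525 and 0.0558). The granule list summed to 2035 to 2218 CPM with vehicle, against 66.25 to 108.2 CPM for the 10 genes. Which cells held these reads was not tested.

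The list of adaptors that carry the signal of NK receptors holds genes that serve myeloid receptors as well. For this list and the next, the share of all genes called was 7.97% lower and 5.78% higher. Of its 12 genes 6 fell, 0 rose and 6 did not pass (median -0.83), and those that fell were led by the DAP12 gene Tyrobp (-0.97), Fcer1g (-0.95), the kinase Syk (-0.92) and Lcp2 (-0.70), with edgeR adjusted p of 0.00364, 0.00318, 0.00484 and 0.00372. Of the cytokine list 4 of 13 fell and 1 rose (median -0.36). Il15, the cytokine on which NK cells depend, fell by 1.05 on the log2 scale and Stat4, which relays interleukin-12, by 0.85, while the kinase Jak3 rose by 0.68 (edgeR adjusted p = 0.0128, 0.0125 and 0.0431). Stat5b fell by 0.42 (edgeR adjusted p = 0.0279).

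Of the list of transcription factors 2 of 15 fell, where 7.97% of all genes did, with a median of -0.53. These were Id2 (-0.57), which all innate lymphoid cells need, and Ets1 (-0.51), with edgeR adjusted p of 0.0467 and 0.0241. Zeb2 and Ikzf3 were at -0.45 and -0.53 (edgeR adjusted p = 0.153 and 0.362). Of the ligands of NK receptors 8 of 12 symbols were in the table, 5 were tested and 2 fell (median -0.95): H2-T23, the Qa-1 molecule that CD94 with NKG2A binds (-0.99, edgeR adjusted p = 0.00378), and Clec2d (-0.95, 0.006). The NKG2D ligand H60b was at -1.45 (edgeR adjusted p = 0.21) and Clec2i at -0.60 (0.12). Of the chemokine list 5 of 12 fell and 0 rose (median -0.82), among them Ccl3 (-1.93) and Cx3cr1 (-1.89), as did Ccr1 (-0.84), a receptor of Ccl5 (edgeR adjusted p = 0.0128, 0.00678 and 0.0262), with Ccr3 at -0.28 (0.678). With the Xist term 0 genes of these 7 lists were called, as 0 of all genes were. The list medians with that term were -0.93 for ligands, -0.53 for chemokines, -0.52 for adaptors, -0.14 for cytokines, -0.12 for transcription factors and -0.08 for granule genes. The median was 0.31 for NK receptors, which thus turned in sign, as did the median of the 10 genes (0.09).

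**Figure D4:**
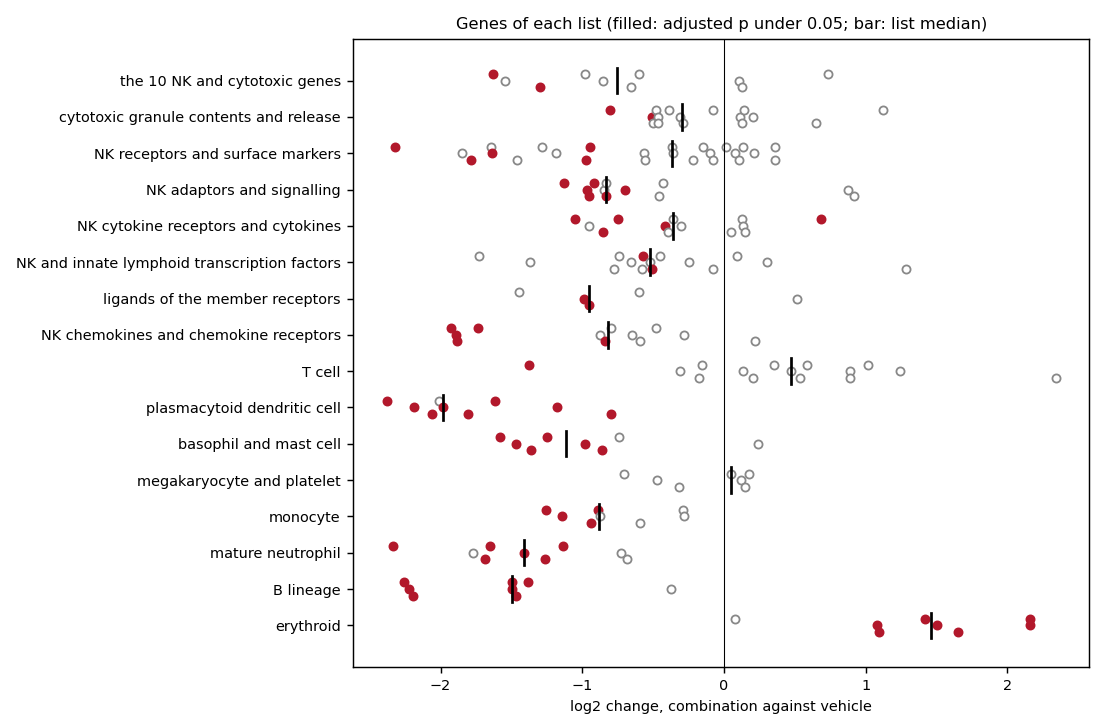
Log2 change under the combination against vehicle for the genes of each list (rows), filled where the edgeR adjusted p was under 0.05, with a bar at the list's median. The 10 NK and cytotoxic genes (median -0.76) spread across 0, the T cell markers (median 0.47) lie mostly to the right, and plasmacytoid dendritic cell markers (median -1.98) to the left.

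Markers of other cells that the marrow holds moved with the groups as well, and their part in the results was not tested. Of all genes 7.97% were called lower and 5.78% higher under the combination against vehicle. Of the T cell list 11 of 15 genes were positive under the combination (median 0.47), 0 were called higher, and 1, the interleukin-7 receptor Il7r (-1.37), which B cell precursors also carry, was called lower (edgeR adjusted p = 0.0114). Cd8b1 was at 1.24 and Cd3e at 1.02 (edgeR adjusted p = 0.0537 and 0.0969), and Cd4 at -0.18 (0.797). The summed level of the T cell list ran from 116 to 149.7 CPM with vehicle and from 106 to 157 CPM with the combination. A further identifier of this list, not among the 15 tested, was at 0 in all libraries. Of plasmacytoid dendritic cell markers 8 of 9 fell (summed 352 to 554 CPM with vehicle, 114 to 198 CPM with the combination), of basophil and mast cell markers 6 of 8 (1092 to 1382 and 453 to 642 CPM), of monocyte markers 4 of 8, of mature neutrophil markers 6 of 9 and of B lineage markers 7 of 8. Of erythroid markers 7 of 8 rose, and of megakaryocyte and platelet markers 0 of 7 passed the test.

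Across the 12 libraries the 10 genes varied together to different degrees. Of their 45 pairs 44 had a positive correlation of log2 CPM, with a median Pearson r of 0.50, and the median was 0.61 for deviations from the group means, so members also varied together within groups. In each library the 10 genes share its depth and cell makeup, which differ between libraries, and the values are a description. Gzma and Klrk1 followed the other 9 most closely (median r of 0.78 each), and Ccl5 least (0.25), with Gzmb at 0.32. Within groups Ccl5 had a median r of 0.66 with the others.

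Among 13430 other genes with a mean of at least 1 CPM, those most like the mean standardised level of the 10 were Ly9, Ctsw, Evl, Trbc1, Cd83, Dpp4, 2410022M11Rik and Klra7, with a Pearson r of 0.92 for Ly9 down to 0.89 for Klra7 over the 12 libraries, given as a description. Ctsw, which encodes a cathepsin of cytotoxic lymphocytes, had group means of 12.6 CPM with vehicle, 13.8 with PD-901, 10.4 with 5-azacitidine and 8.87 with the combination. Klra7, a Ly49 receptor gene, ran from 1.65 to 9.03 CPM, and its reads may be shared with near-identical Ly49 genes. Trbc1 encodes a constant segment of the T cell receptor beta chain and ran from 4.48 to 14.1 CPM.

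RefSeq gave promoter windows, from 250 bases before to 50 bases after a start (GRCm38.p6, the same assembly as mm10), for 8 of the 10 genes, all but Klrd1 and Ccl5. The T-box core GGTGTGA, searched on both strands, was in 0 of the 8 (3.98% of all 32851 windows held it). The ETS-type sequence CCGGAA was likewise in 0 (14.9%). Only these exact letters were searched, so other forms of T-box and ETS sites were not covered. The Runx core TGTGGT was in 6 of the 8 (16.8% of all windows): Prf1, Ncr1, Gzma, Gzmb, Klrb1c and Klrk1. The upstream bases are shown for the 3 genes with the lowest changes under the combination and for Gzmb, whose level did not follow them, 5′ to 3′ along the gene, with the Runx core in capitals (TGTGGT, or ACCACA where it lies on the other strand):
Prf1, chr10:61297586-61297832, plus strand: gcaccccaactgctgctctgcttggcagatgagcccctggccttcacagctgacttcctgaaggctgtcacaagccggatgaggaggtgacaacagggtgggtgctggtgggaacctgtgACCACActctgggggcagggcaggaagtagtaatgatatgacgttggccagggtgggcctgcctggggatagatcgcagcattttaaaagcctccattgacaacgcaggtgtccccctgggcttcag
Ncr1, chr7:4337474-4337723, plus strand: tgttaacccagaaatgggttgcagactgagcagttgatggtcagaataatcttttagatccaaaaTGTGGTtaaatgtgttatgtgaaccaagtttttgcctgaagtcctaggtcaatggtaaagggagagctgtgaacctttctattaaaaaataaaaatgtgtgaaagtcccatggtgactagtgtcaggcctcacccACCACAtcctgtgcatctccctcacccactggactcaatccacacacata
Gzma, chr13:113100982-113101231, minus strand: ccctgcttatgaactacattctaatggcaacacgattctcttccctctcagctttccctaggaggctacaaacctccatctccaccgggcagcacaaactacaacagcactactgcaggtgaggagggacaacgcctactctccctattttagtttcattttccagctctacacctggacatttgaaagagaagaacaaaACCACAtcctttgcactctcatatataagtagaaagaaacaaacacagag
Gzmb, chr14:56262335-56262584, minus strand: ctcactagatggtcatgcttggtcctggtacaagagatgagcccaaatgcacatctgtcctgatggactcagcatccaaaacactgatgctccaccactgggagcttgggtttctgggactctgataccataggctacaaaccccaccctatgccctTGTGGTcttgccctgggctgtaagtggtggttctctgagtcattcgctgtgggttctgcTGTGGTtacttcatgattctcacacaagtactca
Gzmb held the core at 2 places and Ncr1 at 2, and Prf1 and Gzma held it at 1 in these stretches. A match of letters is not a bound site.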

How the data were processed

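Bone marrow RNA of 12 mice was sequenced, 1 library a mouse. The values are raw counts of reads by gene, as the authors deposited them, before any scaling. Tools listed in the submitters' processing notes are STAR 2.7.2a, bcl2fastq, Subread 1.6.5 and featureCounts, and mm10 is the build. The annotation release and the use of strand were not given in the sources used here. Exon lengths are the authors' deposited column. Of 56350 identifiers 55094 matched GENCODE M21, each at identical coordinates.

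The model was fitted with edgeR 4.0.16 (R 4.3.3): filterByExpr (minimum count 10, minimum total 15), which left 17475 genes, TMM scaling (factors 0.929 to 1.07), and a robust quasi-likelihood model with 1 mean per group and 8 residual degrees of freedom. CPM are scaled to the TMM-adjusted total of the genes tested, except Xist and Y-linked genes, which are over total counts. Tests were two-sided, with Benjamini-Hochberg adjustment over all genes of a contrast and a threshold of 0.05. Standard errors are those implied by the F statistic. The test was checked on simulated counts. Alternatives were DESeq2 1.42.0 and its size factors in edgeR, limma-voom (limma 3.58.1), a stricter or no low-count filter, only the groups compared, and each library left out. Leaving out the 4 libraries lowest in Lyz2 and a term for Xist were added with the data known. The labels make each sample its own mouse, and replicate numbers only name them. No 2 libraries of the same group agreed within sampling noise (chi-square over its degrees of freedom, 19.9 to 71.2). Libraries of different groups were not compared in this way. The 10 genes and all lists were chosen with earlier results of these data known. All 10 are named, with up to 4 genes a list by the lowest joint p, and the 8 genes most like the 10 by correlation.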

Additional observations from a re-analysis of the deposited data

How the results depend on the processing

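No paired analysis was possible because nothing in the labels ties mice of different groups together: a replicate number is a name within its group. The 10 genes had 14 to 588 counts a library and 3 mice a group, which both limit the tests. The cause of each change below was not tested.

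Of the 10 genes, 2 were called under the combination against vehicle, and 5 without a low-count filter, 4 with DESeq2, 4 with only the groups compared, 0 without the 4 libraries lowest in Lyz2, 0 with the Xist term and 0 to 3 without 1 library. Against PD-901 the 1 call became 2 with DESeq2 size factors, a stricter filter or only the groups compared, 3 without a filter or with DESeq2, 0 with limma-voom, without the low-Lyz2 libraries or with the Xist term, and 0 to 2 without 1 library. In the joint test 0 became 4 without a filter, 3 with DESeq2 and 0 to 2 without 1 library. The main fit called 13.8% of all genes against vehicle, 6.82% against PD-901 and 6.96% in the joint test. Counts of all genes are given below for only some of the other settings. Where none is given, the count among the 10 cannot be set against a share of all genes.

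Of all genes, PD-901 against vehicle gave 0, and 53 without a filter, 5 with DESeq2, 17 without the low-Lyz2 libraries, 1 with the Xist term and 0 to 1 without 1 library. 5-azacitidine against vehicle gave 1, and 572 without a filter, 613 with DESeq2, 2 with limma-voom, 7 with only the groups compared, 26 without the low-Lyz2 libraries and 0 to 106 without 1 library. The combination gave 2403 against vehicle, and 670 without the low-Lyz2 libraries, 0 with the Xist term and 803 to 2730 without 1 library. Against PD-901 it gave 1191, with 2215 by DESeq2, 693 without the low-Lyz2 libraries, 520 with the Xist term and 386 to 1563 without 1 library. Against 5-azacitidine it gave 231, with 986 without a filter, 1048 by DESeq2, 4 with only the groups compared and 0 to 735 without 1 library. 5-azacitidine against PD-901 gave 0, with 144 without a filter, 44 by DESeq2, 1 with only the groups compared, 10 without the low-Lyz2 libraries and 0 to 3 without 1 library. The interaction gave 0, with 400 without a filter, 288 by DESeq2, 30 without the low-Lyz2 libraries and 0 to 150 without 1 library. The joint test gave 1217, with 2629 without a filter, 3018 by DESeq2, 551 without the low-Lyz2 libraries, 6 with the Xist term and 4 to 1674 without 1 library.

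Signs turned in the following cases, none of them a called gene in that comparison. Single genes were recomputed for all 10 in the contrasts with vehicle and in the combination against PD-901, but for Prf1, Ncr1 and Gzma alone in the combination against 5-azacitidine and for Gzma alone in 5-azacitidine against PD-901. With the Xist term, log2 changes were 0.25 (Prf1), 0.18 (Ncr1), 0.19 (Klrb1c) and 0.16 (Klrd1) for PD-901, 0.15 (Eomes) for 5-azacitidine, 0.044 (Klrk1), 0.14 (Klrd1) and 0.48 (Eomes) for the combination, 0.19 (Klrk1) and 0.72 (Eomes) against PD-901, and 0.19 (Ncr1) against 5-azacitidine. Without the low-Lyz2 libraries they were -0.064 (Tbx21) for PD-901, -0.40 (Gzmb) for 5-azacitidine, -0.75 (Gzmb), -0.65 (Tbx21) and -0.12 (Ccl5) for the combination, -0.29 (Ccl5) against PD-901 and 0.11 (Ncr1) against 5-azacitidine. By limma-voom Eomes was at 0.043 against PD-901. Among these, the ranges without 1 library that crossed 0 were, for PD-901, -0.28 to 0.31 (Prf1), -0.44 to 0.21 (Ncr1), -0.27 to 0.54 (Gzma), -0.58 to 0.17 (Klrb1c) and -0.52 to 0.11 (Klrd1). For 5-azacitidine they were -0.20 to 0.34 (Gzmb) and -0.018 to 0.71 (Ccl5), and for the combination -0.25 to 0.40 (Gzmb) and -0.20 to 0.40 (Tbx21). Against PD-901 they were -0.47 to 0.45 (Eomes) and -0.14 to 0.54 (Ccl5), and against 5-azacitidine -0.62 to 0.17 (Ncr1) and -0.83 to 0.031 (Gzma).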
